A study of Mus musculus with 4 samples.

Results

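The genes of phospholipase C (PLC), protein kinase C (PKC) and calcium signaling were examined in the vermis of the cerebellum, in tissue enriched for granule cells (GCE). The set holds 58 genes and was found in the tables by the NCBI gene number of each listed gene, without any measured value. It is 58 of the 24532 gene identifiers in the tables, and 55 of the 58 were among the 13652 genes expressed highly enough to be tested. Bulk RNA was sequenced from 2 wild-type (WT) and 2 *Kdm3b*+/- animals, each giving 1 library. All were adult males, and the WT mice were littermates of the mutants. The *Kdm3b*+/- mice carry a gene-trap vector in an intron of 1 copy of *Kdm3b*, which encodes a histone demethylase. The mutant line came from a single ES cell line and was backcrossed to a C57Bl/6N background, then bred further with C57Bl/6J, so the mice carry both substrains. The trapped allele is present in every cell type of the animal. GCE tissue was cut by hand from slices under a stereomicroscope, while the labels name the tissue only as cerebellum.

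In this cascade a receptor coupled to Gq activates PLC, which cleaves the membrane lipid PIP2 into inositol trisphosphate (IP3) and diacylglycerol. IP3 opens calcium channels of the endoplasmic reticulum, diacylglycerol together with calcium recruits PKC, and calcium bound to calmodulin switches on the calmodulin-dependent kinases (CaM kinases). Diacylglycerol kinases, IP3 kinases and calcium pumps end the signal. In the cerebellum the cascade is best known from Purkinje cells, where it serves long-term depression at parallel fibre synapses, and granule cells express their own set of its isoforms.

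The libraries held between 4.92 and 6.69 gigabases of aligned sequence. Levels are given in TPM, a length-scaled share of the transcripts in a library, and differences as *Kdm3b*+/- minus WT on the log2(TPM + 1) scale, which understates the change of genes with a low TPM. *Kdm3b* itself was at 9.10 and 11.0 TPM in the WT libraries and at 8.30 and 7.90 TPM in the *Kdm3b*+/- libraries (log2 fold change −0.27 with a standard error, SE, of 0.17, and adjusted p = 0.424 from limma). The 10 granule cell markers were detected in every library, with a summed level between 3923 and 4669 TPM, and their median log2 fold change was 0.05. RNA of other cell types was present too. The 10 Purkinje cell markers, none of them at 0, summed to 1268 TPM in WT mouse 1 and 597 TPM in WT mouse 2, against 669 and 550 TPM in the *Kdm3b*+/- libraries. WT mouse 1 therefore stands apart, and for some genes that are high in it the log2 fold change is also given without it. In bulk samples, fewer cells of a type and less RNA per cell cannot be told apart.

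None of the 55 tested genes was a DEX gene with limma. A DEX gene here had an adjusted p under 0.05 together with a fold change over 1.2. The study's own test, DESeq2 on counts, did list *Dgkz*, *Prkcd*, *F2r* and *Plcg1* as differentially expressed. The smallest adjusted p was 0.105 from limma. Over all tested genes the share of DEX genes was 0.461%, made up of 0.344% with lower and 0.117% with higher expression. At an unadjusted p under 0.05 there were 14 genes with lower and 1 gene with higher expression in the *Kdm3b*+/- libraries. These are 25.5% and 1.82% of the 55 genes, beside 11.5% and 5.47% of all tested genes. Leaving out *Kdm3b*+/- mouse 1 brought the number in either direction from 15 to 8. Without *Kdm3b*+/- mouse 2, 4 of the genes were DEX, namely *Dgkz*, *Camk2b*, *Plcg1* and *Camkk1*, beside 188 of all tested genes. In that comparison the remaining library was assumed to vary as the WT libraries do.

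Most differences pointed toward lower expression in the *Kdm3b*+/- libraries. The mean was lower for 46 of the 55 genes (83.6%), beside 60.4% of all tested genes. Both *Kdm3b*+/- mice had less than either WT mouse for 28 genes (50.9%), beside a background of 32.0%. Both had more for 4 genes (7.27%), beside 19.2%. The groups were thus apart for 32 genes (58.2%), beside 51.3% of all tested genes. The median log2 fold change was −0.22, with a range from −0.86 to 0.47, while the median over all tested genes was −0.07. The transcripts of the set are long, with a median of 4708 bases against 3364 bases for all tested genes. After a correction for transcript length and GC content in each library, the median was −0.10 for the set and 0.00 for all genes, and 36 of the 55 means were lower, beside 49.8% of all genes. With that correction 10 of the 55 genes had an unadjusted p under 0.05 with lower and 4 of the 55 with higher expression, beside 7.63% and 7.70% of all genes. The sign turned for 12 of the 55 genes, namely *Atp2b3*, *Calm2*, *Calm3*, *Camk1*, *Camkk2*, *Dgkd*, *Itpkb*, *Plcd3*, *Plcg2*, *Plcl2*, *Prkce* and *Prkcq*. With 2 mice against 2, an exact permutation test cannot give a p below 0.3333, so single genes are described by their values in each mouse.

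**Figure D1:**
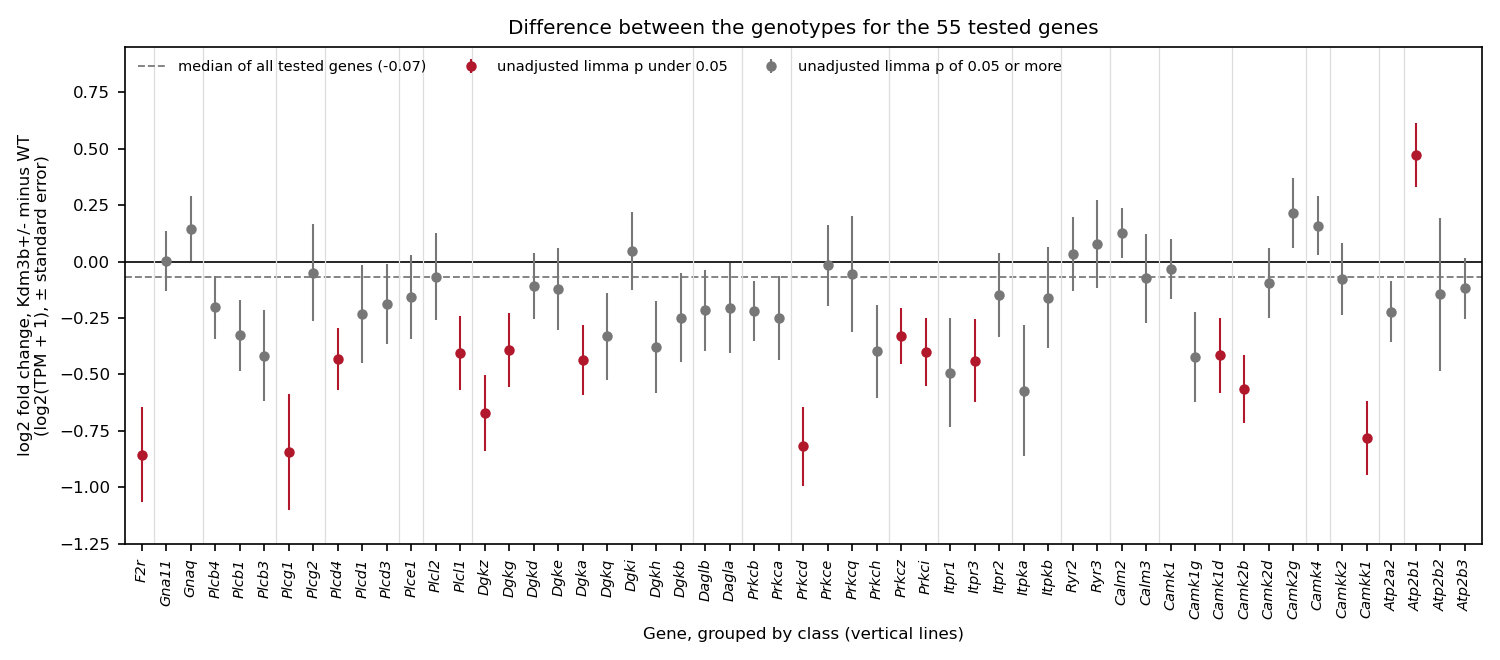
Log2 fold change (*Kdm3b*+/- minus WT, log2(TPM + 1) scale) of each of the 55 tested genes, with bars for the standard error; red points have an unadjusted limma p under 0.05 and the dashed line is the median of all tested genes, −0.07. Most points lie below 0, the lowest is *F2r* at −0.86 and the highest is *Atp2b1* at 0.47.

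Levels spanned a wide range. The plot of levels shows *Calm2*, one of the genes that encode calmodulin, far above the rest, with 8506 and 7554 TPM in the WT mice. The next genes were *Camk2b* and *Calm3*, followed by *Prkcb* and *Prkcz*. *Plcb2*, *Ryr1* and *Camk2a* had a mean below 1 TPM and were not tested. *Plcb2* was listed at 0 in WT mouse 1 and at 0.101, 0.186 and 0.218 TPM in WT mouse 2 and the *Kdm3b*+/- mice. *Camk2a*, the main CaM kinase II gene of the forebrain, was at 1.07 TPM in WT mouse 1 and at 0.323, 0.374 and 0.340 TPM in the other three libraries. *Ryr1*, the ryanodine receptor of skeletal muscle, lay between 0.427 and 0.763 TPM. For 50 of the 58 genes the ratio of coverage to TPM was within 10% of its median, and for the other genes, *Prkcb* and *Camk2d* among them, the order of levels can differ between the measures.

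**Figure D2:**
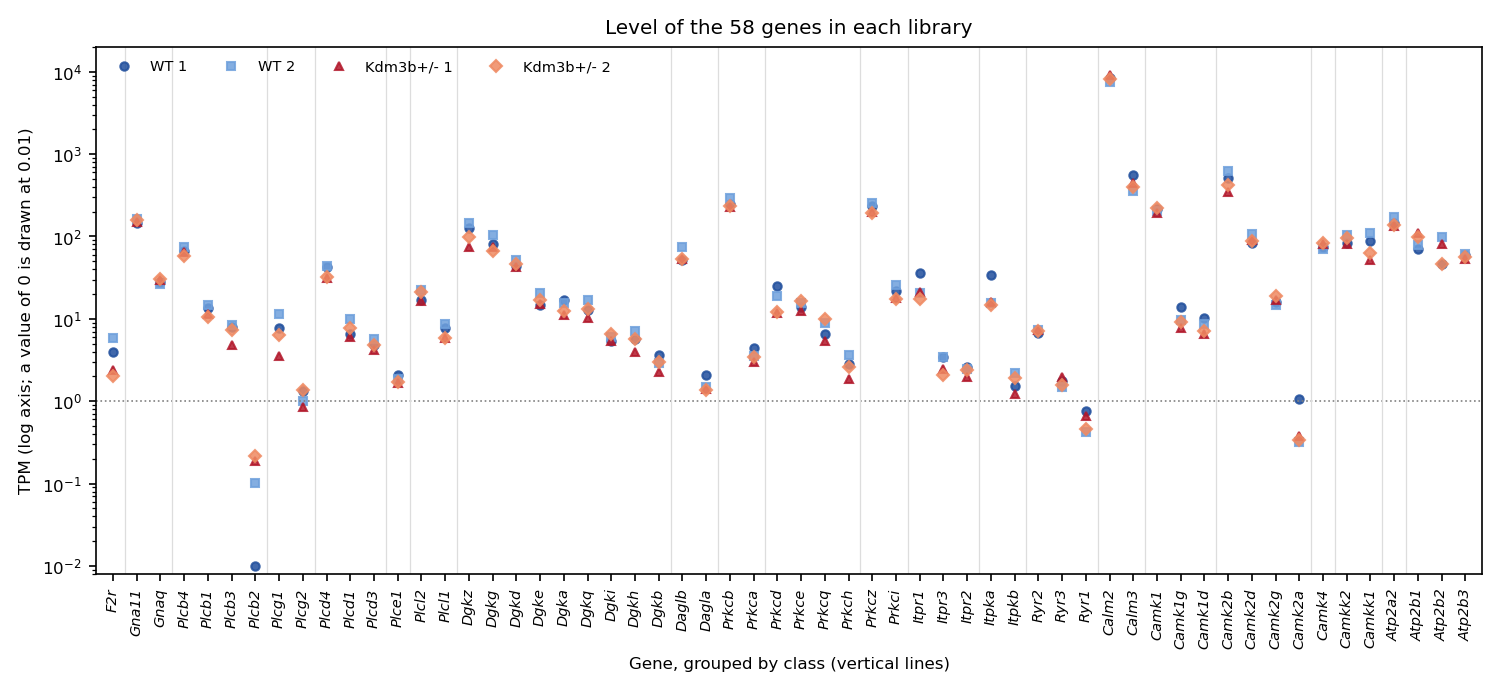
Level of each gene in TPM (log axis) in the 4 libraries, grouped by class; the dotted line is 1 TPM and a value of 0 is drawn at 0.01. *Calm2* exceeds every other gene, and each family has 1 or a few isoforms well above the rest.

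The *F2r* gene, which encodes the thrombin receptor PAR1, the only cell-surface receptor in the set, had the lowest log2 fold change. Its level was 3.93 and 5.81 TPM in the WT libraries and 2.42 and 1.996 TPM in the *Kdm3b*+/- libraries, so the groups did not overlap. The mean was 54.6% lower (log2 fold change −0.86 ± 0.21 SE, adjusted p = 0.135 from limma). *F2r* lies on the reverse strand of chromosome 13 from 95601789 to 95618433. The genes of the alpha subunits that carry the signal from such receptors did not show lower values. *Gna11* was at 144 and 162 TPM in the WT libraries and at 149.7 and 157 TPM in the *Kdm3b*+/- libraries, with a log2 fold change of 0.00 (95% confidence interval −0.29 to 0.30), or 0.24 after the correction for length and GC content. *Gnaq* was at 28.1 and 26.5 TPM in the WT libraries and at 29.8 and 30.8 TPM in the *Kdm3b*+/- libraries, both above the WT values (log2 fold change 0.15, adjusted p = 0.627 from limma), with 0.25 after the correction for length and GC content. The interval of *Gna11* does not show that its levels were alike.

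The PLC family had a lower mean in all 11 tested genes, or in 8 of them after the correction for length and GC content. The groups were apart in 8 (72.7%), beside 51.3% of all tested genes. *Plcb4*, the PLC isoform of Gq-coupled signaling with the highest level here, was at 67.4 and 74.5 TPM in the WT libraries and at 64.2 and 58.7 TPM in the *Kdm3b*+/- libraries (log2 fold change −0.20, adjusted p = 0.476 from limma), with −0.12 after the correction for length and GC content and −0.13 without WT mouse 2. *Plcb1* had 13.5 and 14.7 TPM in the WT mice against 11.5 and 10.5 TPM. *Plcb3* had 7.95 and 8.51 TPM against 4.81 and 7.23 TPM (log2 fold change −0.42, or −0.17 after the correction for length and GC content and −0.16 without *Kdm3b*+/- mouse 1). In these PLC beta genes both *Kdm3b*+/- values were the lower, and *Plcb4* made up most of the summed level of the beta family, at 75.8% and 76.2% in the WT libraries and at 79.5% and 76.6% in the *Kdm3b*+/- libraries.

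*Plcg1*, the isoform activated by receptor tyrosine kinases, had the lowest log2 fold change within the PLC family. Its level was 7.82 and 11.3 TPM in the WT libraries and 3.54 and 6.42 TPM in the *Kdm3b*+/- libraries, a mean 47.9% lower (log2 fold change −0.84 ± 0.26 SE, adjusted p = 0.183 from limma). The *Kdm3b*+/- libraries differed over 1.5-fold from each other, yet both were below the WT libraries. Its log2 fold change was −0.49 without *Kdm3b*+/- mouse 1. The span of *Plcg1* overlaps the gene model of *Zhx3* on the opposite strand by 5314 bases, and whether the counting used strand is not given in the sources used here. *Plcg2*, known mainly from immune cells, was between 0.847 and 1.36 TPM and the groups overlapped.

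*Plcd4*, a calcium-responsive PLC delta, was close to equal within each group. It was at 43.2 and 43.3 TPM in the WT libraries and at 31.3 and 32.3 TPM in the *Kdm3b*+/- libraries, a mean 26.4% lower (log2 fold change −0.43 ± 0.14 SE, adjusted p = 0.195 from limma), and the log2 fold change was −0.27 after the correction for length and GC content. Its span overlaps that of *Usp37* on the opposite strand by 1398 bases. *Plcl1*, a PLC-like protein that binds IP3 but lacks catalytic activity, was at 7.67 and 8.58 TPM in the WT libraries and at 5.85 and 5.91 TPM in the *Kdm3b*+/- libraries. Its paralogue *Plcl2* overlapped between the groups, with a log2 fold change of −0.07 that was 0.05 with quantile normalization. *Plcd3* and *Plce1* were lower in both *Kdm3b*+/- mice by 14.6% and 15.6% of the mean, though the log2 fold change of *Plcd3* was 0.03 after the correction for length and GC content, and *Plcd1* overlapped.

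Diacylglycerol kinases turn diacylglycerol into phosphatidic acid and so limit PKC activation. Of the 9 genes, 8 had a lower mean, or 7 after the correction for length and GC content. The groups were apart for 4 (44.4%), beside 51.3% of all tested genes. *Dgkz*, the isoform with the highest level in the WT mice, was at 125 and 147 TPM in the WT libraries and at 73.6 and 97.9 TPM in the *Kdm3b*+/- libraries. The mean was 37.0% lower (log2 fold change −0.67 ± 0.17 SE, adjusted p = 0.142 from limma), and the log2 fold change was −0.42 after the correction for length and GC content. *Dgkz* lies on the reverse strand of chromosome 2 from 91932822 to 91963563. *Dgkg*, a calcium-binding isoform, was at 81.0 and 105 TPM in the WT libraries and at 74.9 and 65.8 TPM in the *Kdm3b*+/- libraries (log2 fold change −0.39, or −0.23 after that correction and −0.20 without WT mouse 2). In *Kdm3b*+/- mouse 1 *Dgkg* exceeded *Dgkz*, whereas *Dgkz* exceeded *Dgkg* in the other three libraries. *Dgka*, also calcium-binding, was at 16.8 and 15.6 TPM in the WT libraries and at 11.1 and 12.4 TPM in the *Kdm3b*+/- libraries, a mean 27.6% lower. *Dgkh* was lower in both *Kdm3b*+/- mice as well, and *Dgki* had the single higher mean of the family (log2 fold change 0.05, or −0.06 without *Kdm3b*+/- mouse 2).

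The summed level of the diacylglycerol kinases was 309.8 and 373 TPM in the WT libraries and 239 and 267 TPM in the *Kdm3b*+/- libraries. The share of *Dgkz* in it was 40.4% and 39.3% in the WT libraries and 30.7% and 36.7% in the *Kdm3b*+/- libraries. The lower sum therefore went along with a smaller part taken by *Dgkz*. Diacylglycerol lipases use the same lipid to make the endocannabinoid 2-arachidonoylglycerol. *Daglb* was at 52.3 and 75.4 TPM in the WT libraries and at 54.0 and 53.8 TPM in the *Kdm3b*+/- libraries, so WT mouse 2 alone was high, and the log2 fold change of −0.22 was 0.04 without it. *Dagla*, a low-level gene here, was between 1.38 and 2.06 TPM.

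All 8 PKC genes had a lower mean in the *Kdm3b*+/- libraries, or 6 of them with FPKM, median-ratio scaling, quantile normalization or the correction for length and GC content. The groups were apart for 6 (75%), beside 51.3% of all tested genes. Their summed level was 562 and 621 TPM in the WT libraries and 475 and 493 TPM in the *Kdm3b*+/- libraries. *Prkcd*, which needs diacylglycerol but no calcium, was at 25.2 and 18.8 TPM in the WT libraries and at 11.7 and 12.2 TPM in the *Kdm3b*+/- libraries, a mean 45.8% lower. Its log2 fold change was −0.82 ± 0.18 SE (adjusted p = 0.105 from limma), and it was −0.61 without WT mouse 1. The gene lies on the reverse strand of chromosome 14 from 30595354 to 30626208. The other kinases of its subclass differed in their pattern. *Prkch* was lower in both *Kdm3b*+/- mice, from a mean of 3.25 TPM to 2.23 TPM, while *Prkce* (log2 fold change −0.02) and *Prkcq* (log2 fold change −0.06) overlapped and turned positive with each of those.

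Both atypical kinases, which respond to neither calcium nor diacylglycerol, were lower in both *Kdm3b*+/- mice. *Prkcz* was at 237 and 254 TPM in the WT libraries and at 197 and 193 TPM in the *Kdm3b*+/- libraries (log2 fold change −0.33 ± 0.12 SE, adjusted p = 0.242 from limma), and the log2 fold change was −0.12 after the correction for length and GC content. *Prkci* was at 22.0 and 25.5 TPM in the WT libraries and at 17.8 and 17.6 TPM in the *Kdm3b*+/- libraries (log2 fold change −0.40 ± 0.15 SE, adjusted p = 0.246). *Prkcb*, a conventional kinase that needs calcium, had the highest TPM of the family, with 249.8 and 291 TPM in the WT libraries and 225 and 238 TPM in the *Kdm3b*+/- libraries (log2 fold change −0.22, or −0.02 after that correction). The other conventional kinase, *Prkca*, lay between 2.97 and 4.43 TPM. By coverage, *Prkcz* exceeded *Prkcb* in every library, so their order depends on the measure. The read depth was 469 against 350.0 in WT mouse 1 and 535 against 513 in *Kdm3b*+/- mouse 2.

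**Figure D3:**
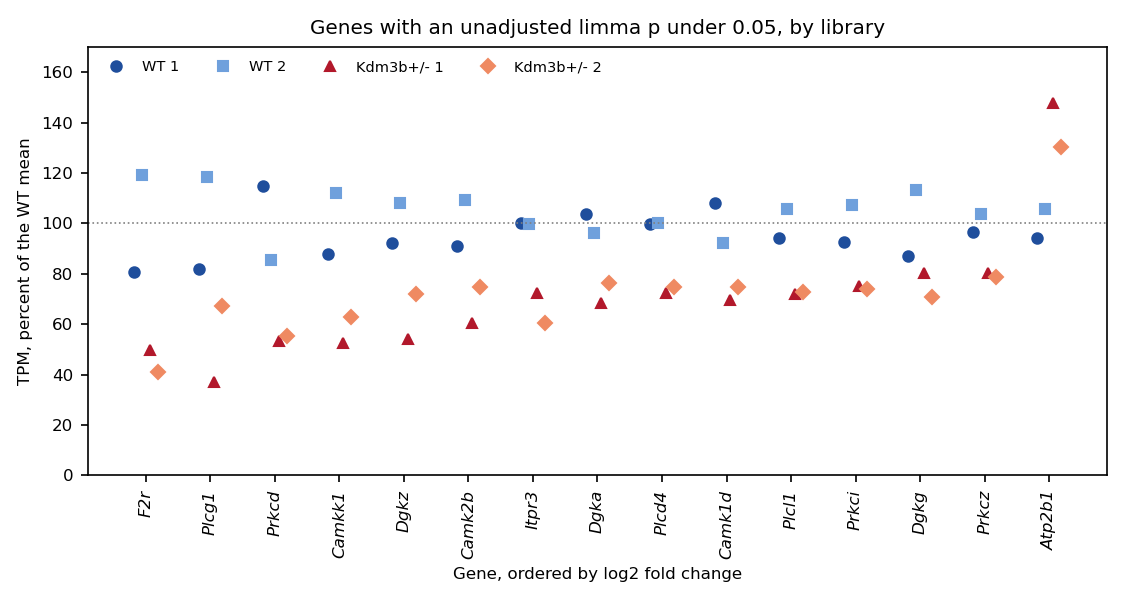
TPM in each of the 4 libraries, as a percent of the WT mean, for the 15 genes with an unadjusted p under 0.05. Both *Kdm3b*+/- points lie below both WT points for 14 genes and above them for *Atp2b1*.

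Among the IP3 receptors, the channels that release stored calcium, the main gene *Itpr1* followed the library that stood apart. It was at 36.4 TPM in WT mouse 1, 20.8 TPM in WT mouse 2, and 21.3 and 17.5 TPM in the *Kdm3b*+/- libraries, so the groups overlapped. Its log2 fold change was −0.49 ± 0.24 SE (adjusted p = 0.331 from limma) and it was −0.10 without WT mouse 1 and −0.88 without WT mouse 2. *Itpka*, the neuronal kinase that converts IP3 to IP4, had the same shape, with 33.9 and 15.7 TPM in the WT libraries and 15.9 and 14.6 TPM in the *Kdm3b*+/- libraries. Its log2 fold change was −0.57, and it was −0.04 without WT mouse 1 and −1.10 without WT mouse 2. *Itpr1* and *Itpka* are both known for high expression in Purkinje cells. All 10 Purkinje cell markers had a lower mean in the *Kdm3b*+/- libraries, beside 60.4% of all tested genes. Of the 10 markers, 6 were apart, beside 51.3% of all tested genes. Their median log2 fold change was −0.57, or −0.41 with 6 of 10 lower without WT mouse 1. *Calb1*, which encodes the calcium buffer calbindin, was at 422 TPM in WT mouse 1 and at 160.1, 191 and 136 TPM in the other three libraries. The part of Purkinje cell RNA in the values of *Itpr1* and *Itpka* was not tested beyond leaving out this library.

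**Figure D4:**
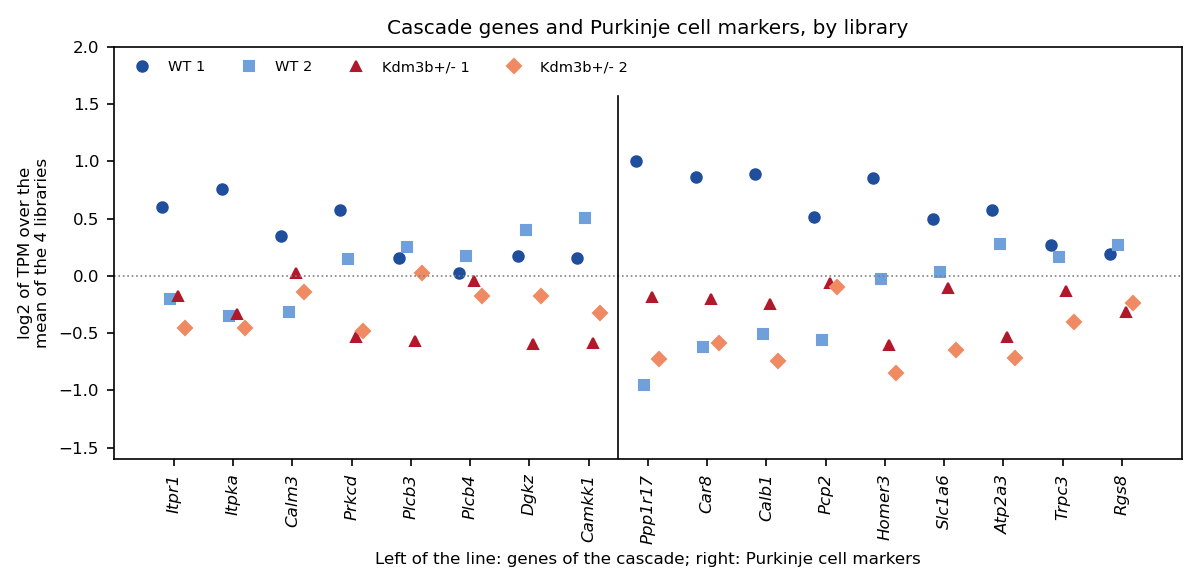
TPM in each library relative to the mean of the 4 libraries (log2), for *Itpr1*, *Itpka* and other genes of the cascade left of the line and 9 of the Purkinje cell markers right of it. *Itpr1* and *Itpka* are high in WT mouse 1 alone, as *Calb1* is.

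*Itpr3* did not follow that library. It was at 3.44 TPM in both WT mice and at 2.49 and 2.08 TPM in the *Kdm3b*+/- libraries, a mean 33.6% lower (log2 fold change −0.44 ± 0.18 SE, adjusted p = 0.270 from limma). *Itpr2* was between 2.42 and 2.58 TPM except in *Kdm3b*+/- mouse 1, where it was 1.96 TPM. The ryanodine receptors, which release calcium in response to calcium, showed higher means in both tested genes and overlapping groups. With single libraries left out, the log2 fold change ranged from −0.02 to 0.09 for *Ryr2* and from −0.02 to 0.17 for *Ryr3*. *Ryr2* was at 6.69 and 7.29 TPM in the WT libraries and at 7.34 and 7.02 TPM in the *Kdm3b*+/- libraries (log2 fold change 0.03, 95% confidence interval −0.33 to 0.40).

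Calmodulin is encoded by several genes with the same protein product. *Calm2* was at 8506 and 7554 TPM in the WT libraries and at 9251 and 8269 TPM in the *Kdm3b*+/- libraries, with overlapping groups and a log2 fold change of 0.13, or −0.02 after the correction for length and GC content. *Calm3* was at 561 and 354 TPM in the WT libraries and at 447 and 401 TPM in the *Kdm3b*+/- libraries. The log2 fold change of *Calm3* was −0.07, and it was 0.26 without WT mouse 1 and −0.40 without WT mouse 2. In the GENCODE transcripts of *Calm2* and *Calm3* the longest identical stretch was 17 bases.

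The CaM kinase cascade gave the gene with the smallest adjusted p of the set. *Camkk1*, an upstream kinase that activates CaM kinases I and IV, was at 87.7 and 112 TPM in the WT libraries and at 52.2 and 62.5 TPM in the *Kdm3b*+/- libraries. The mean was 42.4% lower (log2 fold change −0.78 ± 0.16 SE, adjusted p = 0.105 from limma). *Camkk1* lies on the forward strand of chromosome 11 from 73019008 to 73042065. Its paralogue *Camkk2* was at 82.8 and 103 TPM in the WT libraries and at 80.1 and 95.7 TPM in the *Kdm3b*+/- libraries, with overlapping groups and a log2 fold change of −0.08, or 0.13 after the correction for length and GC content. The ratio of *Camkk1* to *Camkk2* was 1.06 and 1.08 in the WT libraries and 0.652 and 0.653 in the *Kdm3b*+/- libraries. *Camkk1* was therefore the higher of the pair in both WT mice and the lower in both *Kdm3b*+/- mice.

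Their substrates gave mixed values. *Camk4*, a nuclear kinase that phosphorylates CREB and is abundant in granule cells, was at 74.9 and 71.5 TPM in the WT libraries and at 81.1 and 82.5 TPM in the *Kdm3b*+/- libraries (log2 fold change 0.16, adjusted p = 0.557 from limma), with 0.24 after the correction for length and GC content. *Camk4* lies 1.58 Mb from *Kdm3b* on chromosome 18, and allelic background linked to the trapped copy cannot be told apart from the genotype. *Camk1*, whose log2 fold change was −0.03, or 0.04 after the correction for length and GC content, overlapped between the groups at 217 and 206 TPM against 191 and 223 TPM. *Camk1d* was at 10.3 and 8.76 TPM in the WT libraries and at 6.62 and 7.12 TPM in the *Kdm3b*+/- libraries. *Camk1g* was likewise lower in both *Kdm3b*+/- mice, with a log2 fold change of −0.42, or −0.18 without WT mouse 1.

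*Camk2b* supplied most CaM kinase II RNA in this tissue. It was at 519 and 623 TPM in the WT libraries and at 345 and 428 TPM in the *Kdm3b*+/- libraries, a mean 32.3% lower (log2 fold change −0.56 ± 0.15 SE, adjusted p = 0.152 from limma), and the log2 fold change was −0.34 after the correction for length and GC content. *Camk2b* lies on the reverse strand of chromosome 11 from 5969666 to 6065748. *Camk2d* overlapped, with 83.5 and 108 TPM in the WT libraries and 90.2 and 87.5 TPM in the *Kdm3b*+/- libraries. *Camk2g* was at 15.9 and 14.6 TPM in the WT libraries and at 16.8 and 18.9 TPM in the *Kdm3b*+/- libraries, both above the WT values (log2 fold change 0.21, or 0.41 after the correction for length and GC content). The share of *Camk2b* among CaM kinase II genes was 83.8% and 83.5% in the WT libraries and 76.3% and 80.0% in the *Kdm3b*+/- libraries. The share of *Camk2d* was 13.5% and 14.5% in the WT libraries and 19.9% and 16.4% in the *Kdm3b*+/- libraries.

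**Figure D5:**
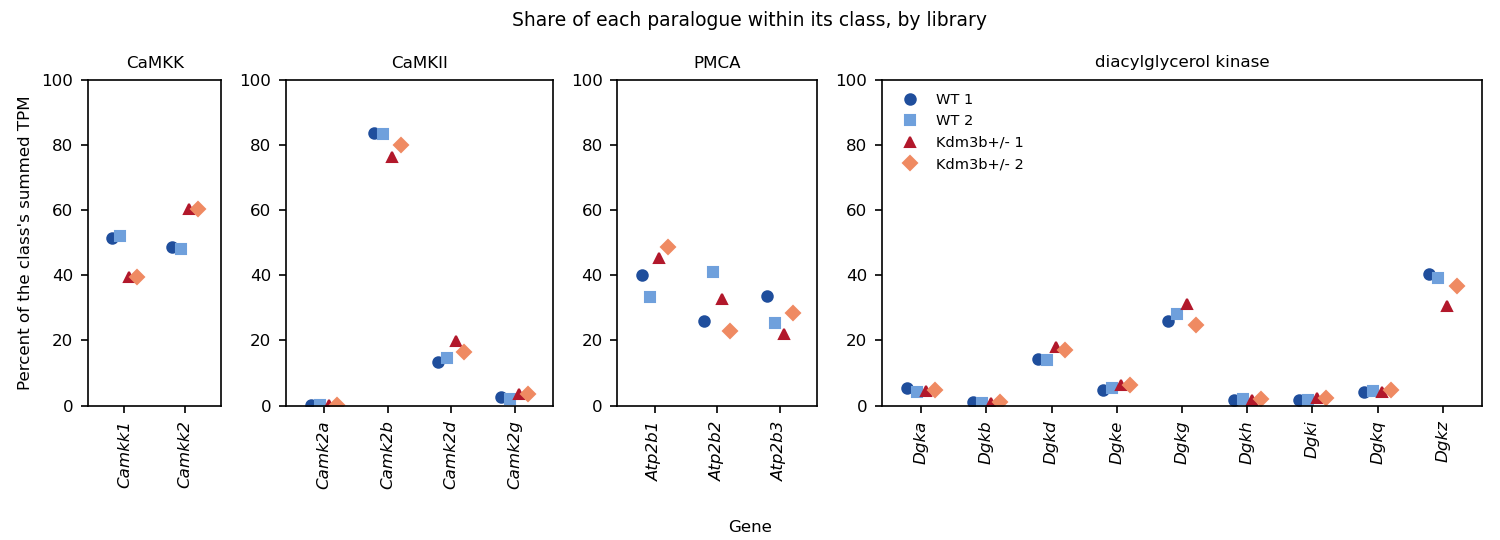
Share of each gene in the summed TPM of its class in each library, in percent, for CaM kinase kinases, CaM kinase II, PMCA pumps and diacylglycerol kinases. The WT points lie close together for *Camkk1* and *Camk2b* and above both *Kdm3b*+/- points, while those of *Atp2b1* lie below.

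Calcium pumps gave the gene with the highest log2 fold change. *Atp2b1*, a pump of the plasma membrane (PMCA1), was at 70.8 and 79.4 TPM in the WT libraries and at 111 and 98.0 TPM in the *Kdm3b*+/- libraries. The mean was 39.2% higher (log2 fold change 0.47 ± 0.14 SE, adjusted p = 0.178 from limma). *Atp2b1* lies on the forward strand of chromosome 10 from 98915152 to 99026143. *Atp2b3* was at 59.6 and 60.5 TPM in the WT libraries and at 53.5 and 56.9 TPM in the *Kdm3b*+/- libraries, both slightly below (log2 fold change −0.12, or 0.10 after the correction for length and GC content). The ratio of *Atp2b1* to *Atp2b3* was 1.19 and 1.31 in the WT libraries and 2.08 and 1.72 in the *Kdm3b*+/- libraries. *Atp2b2*, a fast pump known from Purkinje and hair cells, differed more within groups than between them, with 46.1 and 97.8 TPM in the WT libraries and 80.1 and 46.0 TPM in the *Kdm3b*+/- libraries. Its log2 fold change was −0.14 (95% confidence interval −0.91 to 0.62), and it was −0.68 without WT mouse 1 and 0.39 without WT mouse 2. *Atp2a2*, the SERCA2 pump that refills the endoplasmic reticulum, was at 147 and 173 TPM in the WT libraries and at 135 and 139 TPM in the *Kdm3b*+/- libraries (log2 fold change −0.22, or −0.10 after the correction for length and GC content and without WT mouse 2).

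The letters upstream of the start site are shown for the genes with the lowest adjusted p of the receptor, diacylglycerol kinase, PKC, CaM kinase II, CaM kinase kinase and pump families, the last being the gene with the higher level. Each line gives the 250 bases before the start, written 5′ to 3′ on the strand of the gene, from RefSeq on GRCm38.p6, whose starts of *F2r* and *Camkk1* lie slightly upstream of those in the tables. Capitals mark the GC box GGGCGG and its reverse complement CCGCCC, the letters bound by Sp factors.
F2r, chr13:95618467-95618716, reverse strand: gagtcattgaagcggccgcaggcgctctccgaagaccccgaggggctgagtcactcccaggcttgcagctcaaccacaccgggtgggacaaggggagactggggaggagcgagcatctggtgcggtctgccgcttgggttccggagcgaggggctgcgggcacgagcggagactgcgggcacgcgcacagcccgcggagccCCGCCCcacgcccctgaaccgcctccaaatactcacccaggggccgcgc
Dgkz, chr2:91963564-91963813, reverse strand: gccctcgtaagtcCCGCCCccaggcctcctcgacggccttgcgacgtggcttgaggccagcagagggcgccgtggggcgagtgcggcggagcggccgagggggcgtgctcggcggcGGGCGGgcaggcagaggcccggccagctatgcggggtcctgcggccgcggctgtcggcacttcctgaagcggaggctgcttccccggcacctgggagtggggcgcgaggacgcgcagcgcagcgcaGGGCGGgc
Prkcd, chr14:30626209-30626458, reverse strand: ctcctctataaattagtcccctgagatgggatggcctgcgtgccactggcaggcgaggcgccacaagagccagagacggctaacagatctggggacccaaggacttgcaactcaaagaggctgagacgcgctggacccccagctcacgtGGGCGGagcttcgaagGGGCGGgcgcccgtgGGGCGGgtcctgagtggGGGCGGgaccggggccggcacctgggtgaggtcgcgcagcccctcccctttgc
Camk2b, chr11:6065749-6065998, reverse strand: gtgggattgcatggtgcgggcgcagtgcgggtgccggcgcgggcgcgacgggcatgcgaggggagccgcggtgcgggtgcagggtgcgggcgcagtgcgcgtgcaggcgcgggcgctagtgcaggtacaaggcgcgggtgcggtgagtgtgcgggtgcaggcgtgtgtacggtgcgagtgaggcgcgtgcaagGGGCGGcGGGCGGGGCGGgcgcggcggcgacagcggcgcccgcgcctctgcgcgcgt
Camkk1, chr11:73018738-73018987, forward strand: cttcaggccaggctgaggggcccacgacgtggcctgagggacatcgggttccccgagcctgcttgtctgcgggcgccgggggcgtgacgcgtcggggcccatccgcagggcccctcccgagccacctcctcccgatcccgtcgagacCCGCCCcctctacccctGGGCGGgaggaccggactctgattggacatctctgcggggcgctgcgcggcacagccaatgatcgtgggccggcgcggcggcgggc
Atp2b1, chr10:98914902-98915151, forward strand: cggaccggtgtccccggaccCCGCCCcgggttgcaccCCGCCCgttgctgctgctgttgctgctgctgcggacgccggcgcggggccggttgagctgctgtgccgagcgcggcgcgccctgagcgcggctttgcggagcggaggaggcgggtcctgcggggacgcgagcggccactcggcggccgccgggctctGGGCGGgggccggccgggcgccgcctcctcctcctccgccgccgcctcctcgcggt
These windows are rich in G and C, with 74.4% in *Camkk1*, 67.6% in *Prkcd* and 80.8% in *Atp2b1*. A window was found for 46 of the 58 genes, and its median GC content was 68.4% against 52% for all genes. The GC box occurred in 34 of the 46 windows (73.9%), beside 32.9% of the windows of all 27025 genes. Those 27025 genes were not limited to tested genes, and the first listed window of each was used. For the genes of the set, the window nearest their start in these data was used. The shares and GC contents are therefore not compared like for like. The cAMP response element TGACGTCA occurred in 0 of the 46 windows and in 1.62% of all windows. At so low a share, 0 of 46 does not show that the element is rarer in the set. The factor CREB, which CaM kinase IV phosphorylates, is named for this element. The letters TATAAA of the TATA box were found in 1 window (2.17%), beside 12.97% of all windows. That window was of *Prkcd*, where the letters lie at the end farthest from the start. The E-box CACGTG was found in 5 (10.9%), beside 6.05%. The EGR motif GCGGGGGCG, whose letters can overlap a GC box, occurred in 3 (6.52%), beside 2.56%. Both strands were searched. *Atp2b1*, with the higher level, and the other genes printed all held a GC box.

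Outside the set, 63 further genes of the pathway were followed, of which 56 were tested. None was DEX with limma. At an unadjusted p under 0.05, 11 of the 56 had lower and 3 of the 56 had higher expression in the *Kdm3b*+/- libraries. The backgrounds were 11.5% and 5.47% of all tested genes. The median log2 fold change was −0.09, close to the −0.07 of all genes. *Atp2a3*, the SERCA3 pump, was at 21.5 and 17.5 TPM in the WT libraries and at 9.95 and 8.76 TPM in the *Kdm3b*+/- libraries (log2 fold change −0.98, adjusted p = 0.0523). *Homer3*, which tethers metabotropic glutamate receptors to IP3 receptors, was at 35.1 and 19.1 TPM in the WT libraries and at 12.8 and 10.8 TPM in the *Kdm3b*+/- libraries (log2 fold change −1.08, adjusted p = 0.125). Both genes also stand in the list of Purkinje cell markers, whose summed level is given above, and the part of Purkinje cell RNA in their values was not tested.

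*Inpp5a*, a phosphatase that degrades IP3, was at 176 and 149 TPM in the WT libraries and at 113 and 108 TPM in the *Kdm3b*+/- libraries. *Camkv*, a kinase-like protein that binds calmodulin without catalytic activity, was at 9.19 and 8.71 TPM in the WT libraries and at 3.64 and 5.57 TPM in the *Kdm3b*+/- libraries. *Gap43*, a growth-cone protein and PKC substrate, was at 949 and 912 TPM in the WT libraries and at 1321 and 1240 TPM in the *Kdm3b*+/- libraries (log2 fold change 0.46, adjusted p = 0.131). Genes switched on by neuronal activity, many of which respond to calcium, had a lower mean in all 8 tested cases. The share over all tested genes was 60.4%. The groups were apart for 4 of the 8, beside 51.3% of all tested genes. Their summed level was 387 and 550 TPM in the WT libraries and 326 and 307 TPM in the *Kdm3b*+/- libraries. *Egr1*, with the lowest log2 fold change of these genes (−0.95), starts at 34861207 on chromosome 18, close to the end of *Kdm3b* at 34839370. Allelic background linked to the trapped copy cannot be told apart from the genotype there. The part of the activity genes in the values of the calcium signaling genes was not tested.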

How the data were processed

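Bulk RNA-seq of GCE tissue from 2 WT mice and 2 *Kdm3b*+/- mice was examined, with groups and replicate numbers taken from the labels. The authors trimmed the reads, aligned them with STAR and estimated abundances with StringTie. Versions, the genome build and strandedness are not given in the sources used here. The deposited tables hold coverage (mean read depth per gene, not normalized), FPKM (scaled to length and mapped fragments) and TPM (scaled to length, with an equal total in each library). Of the identifiers, 99.6% lay on the chromosome given by RefSeq for GRCm38.p6, and 90.4% started within 1 kb of its start. TPM was summed over entries of the same identifier, of which 220 had several.

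A gene was tested if its mean TPM reached 1. The test was that of limma version 3.58.1 under R 4.3.3 on log2(TPM + 1), by lmFit and trended eBayes, with genotype as the only term and Benjamini-Hochberg adjustment over 13652 genes. The study's DESeq2 test needs counts and was not repeated. With so few mice the test rests on a spread shared across genes. Depth in gigabases was the ratio of coverage to FPKM, and it limits genes with a low TPM most. The script was tested on simulated data. GENCODE transcripts of GRCm38 gave the length and GC content of 94.5% of tested genes, and of all 55 tested genes of the cascade. Promoter letters came from RefSeq. Of the cascade genes, 8 overlap another expressed gene model (*Plcg1*, *Plcd4*, *Dgkd*, *Dgkg*, *Dgkq*, *Itpkb*, *Camk1* and *Gnaq*), and their values are uncertain to that extent. Other software was statmod 1.5.0, Python 3.11.15, NumPy 2.4.6, pandas 2.3.3 and Matplotlib 3.10.9.

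The 58 genes, the pathway list and the marker lists were chosen with earlier results of these data known. Every gene of the cascade could be named. Values in each library were given for genes with an unadjusted p under 0.05 whose groups did not overlap, the most abundant gene of each family and genes the study names. From the pathway list the 6 genes with the smallest p whose groups did not overlap were to be named, and the result of 1 of them is not reported here by itself.

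Alternatives were a pseudocount of 0.1, no filter, a mean TPM of at least 5, FPKM, median-ratio scaling, quantile normalization, eBayes without trend or robust, the adjusted p alone, the highest entry per identifier, a block for the replicate number, a loess correction of span 0.5 for length and GC content (alone and combined with the block), and leaving out single libraries. Coverage scaled to an equal total was added after seeing the data.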

Additional observations from a re-analysis of the deposited data

How the results depend on the processing

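The count of DEX genes among all tested genes was 63, and it was 38 with FPKM, 37 with eBayes without trend, 1 with no filter (2418 genes at an unadjusted p under 0.05 with limma), 600 (4.39%) with the replicate block, and 21 to 188 with each library left out. Of the calls, 37 of 58 were lower with median-ratio scaling and 47 of 63 with TPM. Of the cascade genes 0 were DEX under every setting but these: 6 with the replicate block (*Camkk1*, *Dgkz*, *Plcg1*, *Prkcd*, *Camk2b* and *F2r*) and 4 without *Kdm3b*+/- mouse 2, so that leaving out a library gave 0 to 4. Same-numbered mice are different animals, and their deviations correlated at 0.121, or 0.0229 after the length and GC correction. With that correction the block gave 0 DEX genes of the cascade. The labels give only a shared number, and whether same-numbered libraries shared a batch was not tested. Genes of the cascade at an unadjusted p under 0.05 numbered 15, 9 with quantile normalization and 8 to 17 with each library left out. Their median log2 fold change of −0.22 was −0.10 with the length and GC correction, with or without the block, and −0.28 to −0.15 with each library left out. Some log2 fold changes changed sign, these beside those given with the genes above. With the length and GC correction, with or without the block, they were −0.0180 for *Calm2*, 0.0412 for *Camk1*, 0.1287 for *Camkk2* and 0.0125 for *Plcl2*. *Camk1* was 0.0321 with FPKM and 0.0393 with median-ratio scaling, *Plcl2* was 0.0023 with median-ratio scaling and 0.0510 with quantile normalization, and *Gna11* was −0.0010 with quantile normalization and −0.0018 with coverage. With each library left out they ranged from −0.1412 to 0.0757 for *Camk1*, −0.2310 to 0.0804 for *Camkk2*, −0.4765 to 0.0440 for *Daglb*, −0.0833 to 0.0883 for *Gna11*, −0.2689 to 0.1358 for *Plcl2* and −0.0189 to 0.0879 for *Ryr2*. The sign also turned with a library left out for *Plcd1*, *Plcg2*, *Dgkd*, *Dgke*, *Prkce*, *Prkcq*, *Itpkb*, *Camk2d* and *Ryr3*. Among these, *Prkcq* ranged from −0.4421 to 0.3280. The cause of these changes was not tested. When a library is left out, the lone library of its group is assumed to vary like the other group.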

Other observations

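Markers of other cell types were counted in the same libraries, and none of the tested markers was at 0 in any library. For inhibitory interneurons 7 of 8 tested markers had a lower mean in the *Kdm3b*+/- libraries, beside 60.4% of all tested genes. The median log2 fold change of these markers was −0.25. Their summed level was 516 TPM in WT mouse 1, 258 TPM in WT mouse 2, and 307 and 295 TPM in the *Kdm3b*+/- libraries. Much of that sum was *Pvalb*, at 290 and 80.2 TPM in the WT libraries and at 161 and 145 TPM in the *Kdm3b*+/- libraries. The markers of Bergmann glia and astrocytes had a median log2 fold change of −0.11, and 2 of 9 were DEX genes, *Aqp4* and *Fabp7*, both with higher expression in the *Kdm3b*+/- libraries. The oligodendrocyte markers had a median of 0.02 with 1 of 8 DEX, *Mobp*, with lower expression, and summed to between 14888 and 17795 TPM. The medians were 0.04 for 7 microglia markers, −0.06 for 6 endothelium markers, −0.02 for the markers of unipolar brush cells, and −0.48 for 5 tested markers of meninges and fibroblasts. The part of these cell types in the values of the calcium signaling genes was not tested.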
